A study of Mus musculus with 15 samples.

Results

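AMPA and NMDA receptors are the ion channels that carry most fast excitatory transmission in the cortex, and they are examined here as 10 genes, Gria1 to Gria4, Grin1, Grin2a to Grin2d and Grin3a. The genes were chosen by name: a row belonged to the set where its gene name was 1 of these 10, and all 10 were found among 21878 rows. All 10 also passed the filter on low values, at least 1 FPKM (fragments scaled to the length of the gene model and the depth of the library) in at least 3 libraries, which left 12728 tested genes. RNA-seq was carried out on 15 libraries of mouse prefrontal forebrain cortex. There were 3 DKO nicotine, 4 DKO water, 4 WT nicotine and 4 WT water libraries. DKO mice carried the genotype labelled PS1/PS2 DKO, a conditional knockout of both presenilins, which are the catalytic subunits of the gamma-secretase protease. WT mice were labelled wildtype C57BL6/J. At 8 months of age the mice were given either nicotine at 100 µg/ml or plain water to drink, for 3 months, and tissue was taken after behaviour tests. The sources used here do not give the promoter that drove the deletion, the background strain of the DKO mice or the sex of the animals. Libraries are numbered within a group, but no label ties a number to 1 animal, so p-values measure only the spread among libraries, which may be technical.

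Libraries held 16334914 to 19469257 reads in genes. The targeted gene Psen2 averaged 1.57 FPKM in DKO nicotine (SD 0.199, n = 3), 1.51 in DKO water (SD 0.179), 6.48 in WT nicotine (SD 0.571) and 6.43 in WT water (SD 0.77, n = 4 in the last 3 groups). The tissue label was checked against defining markers. The cortical neuron genes Slc17a7 and Tbr1 were present in every group, while 4 of 8 markers of cerebellum and thalamus, Pcp2, Gabra6, Cbln3 and Tcf7l2, averaged under 1 FPKM in each. The other 4, Cbln1, Neurod1, Lef1 and Rora, passed the filter, and the 8 markers summed to 10.98 to 13.9 FPKM over all libraries. Markers of neighbouring regions were present and differed between groups. Striatum markers summed to means of 244 FPKM in DKO nicotine, 326 in DKO water, 227 in WT nicotine and 198 in WT water. Hippocampus markers summed to 99.7, 94.7, 77.5 and 74.1 FPKM in those groups. Whether the dissection differed between groups was not tested. Some libraries differed in Y-linked expression: the summed level of Uty, Kdm5d, Eif2s3y and Ddx3y passed 1 FPKM in 2 of 3 DKO nicotine, 4 of 4 DKO water, 0 of 4 WT nicotine and 4 of 4 WT water libraries. The DKO nicotine library without them was replicate 2. Nicotine and the lack of Y-linked signal therefore cannot be told apart in WT. DKO nicotine and WT nicotine differed in that signal too, with all 4 genes called higher in DKO nicotine (median difference 2.09 on the log2 scale). Its part in the genotype comparison on nicotine and in the interaction was not tested.

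AMPA receptors are tetramers built from the subunits GluA1 to GluA4, which Gria1 to Gria4 encode. They open within a millisecond of glutamate release and set the size of the synaptic current. NMDA receptors combine the obligatory subunit GluN1, from Grin1, with GluN2 subunits from Grin2a to Grin2d or with GluN3 subunits. They pass calcium when glutamate, a co-agonist and depolarisation coincide, and this calcium entry is known to trigger synaptic plasticity. How much calcium a receptor passes is set largely, in both families, by 1 residue of the pore loop. The coding DNA around that residue is therefore shown for the 4 AMPA genes and for 4 of the NMDA genes, read from the GENCODE M21 transcripts (GRCm38), 5′ to 3′ on the coding strand, with the codon of the pore-loop residue in capitals.
Gria1: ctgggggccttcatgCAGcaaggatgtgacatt
Gria2: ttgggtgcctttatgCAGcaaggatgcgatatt
Gria3: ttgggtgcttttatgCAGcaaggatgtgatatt
Gria4: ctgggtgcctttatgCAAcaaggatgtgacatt
Grin1: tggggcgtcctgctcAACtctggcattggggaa
Grin2a: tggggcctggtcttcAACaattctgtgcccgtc
Grin2c: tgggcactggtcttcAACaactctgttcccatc
Grin2d: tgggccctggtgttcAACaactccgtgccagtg

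The capital codon is a glutamine codon in all 4 AMPA genes and an asparagine codon in the 4 NMDA genes shown. Against the 33-base Gria2 window, Gria3 shared 31 bases, Gria4 29 and Gria1 28, and the NMDA windows shared 8 to 12. Against the Grin2a window, Grin2c shared 28 bases, Grin2d 27 and Grin1 16. In Gria2 (chromosome 3, 80681450 to 80804227, GRCm38) the codon lies at 80706911 to 80706913 on the minus strand, in exon 11 of 16. That codon is the Q/R site: in neurons the enzyme ADAR2, the product of Adarb1, edits nearly all Gria2 mRNA there so that it reads as arginine, and a receptor with edited GluA2 passes little calcium. The genome shows the unedited codon, and FPKM values cannot tell edited from unedited transcripts, so the comparisons that follow concern the amount of each mRNA only.

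Per length of gene model, Grin1 was the highest of the 10 genes and Grin2a the lowest when all libraries were averaged, at 136 and 1.99 FPKM. Grin1 averaged 120.4 FPKM in DKO nicotine, 127 in DKO water, 147 in WT nicotine and 148 in WT water. Gria1 came next in every group, ahead of Gria2 and Gria3, whose ranges overlapped with each other in all 4 groups. Gria4 followed, apart from its neighbours in every group. Grin3a and Grin2c were next, with ranges that overlapped in DKO nicotine, DKO water and WT nicotine and lay apart in WT water. Grin2b stood below them, with a range that overlapped Grin2c in WT nicotine and Grin2d in both DKO groups. At the foot of the order Grin2d was above Grin2a in every DKO library, while in WT the ranges of the 2 genes overlapped and Grin2a was the higher in 3 of 4 libraries on each drink. At their lowest the counts behind these levels were 282 reads for Grin2a, 309 for Grin2d and 311 for Grin2b. Grin1 had at least 8963 reads in every library. Grin3b, the remaining NMDA subunit gene, was no member and was at most 10 reads in any library.

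**Figure D1:**
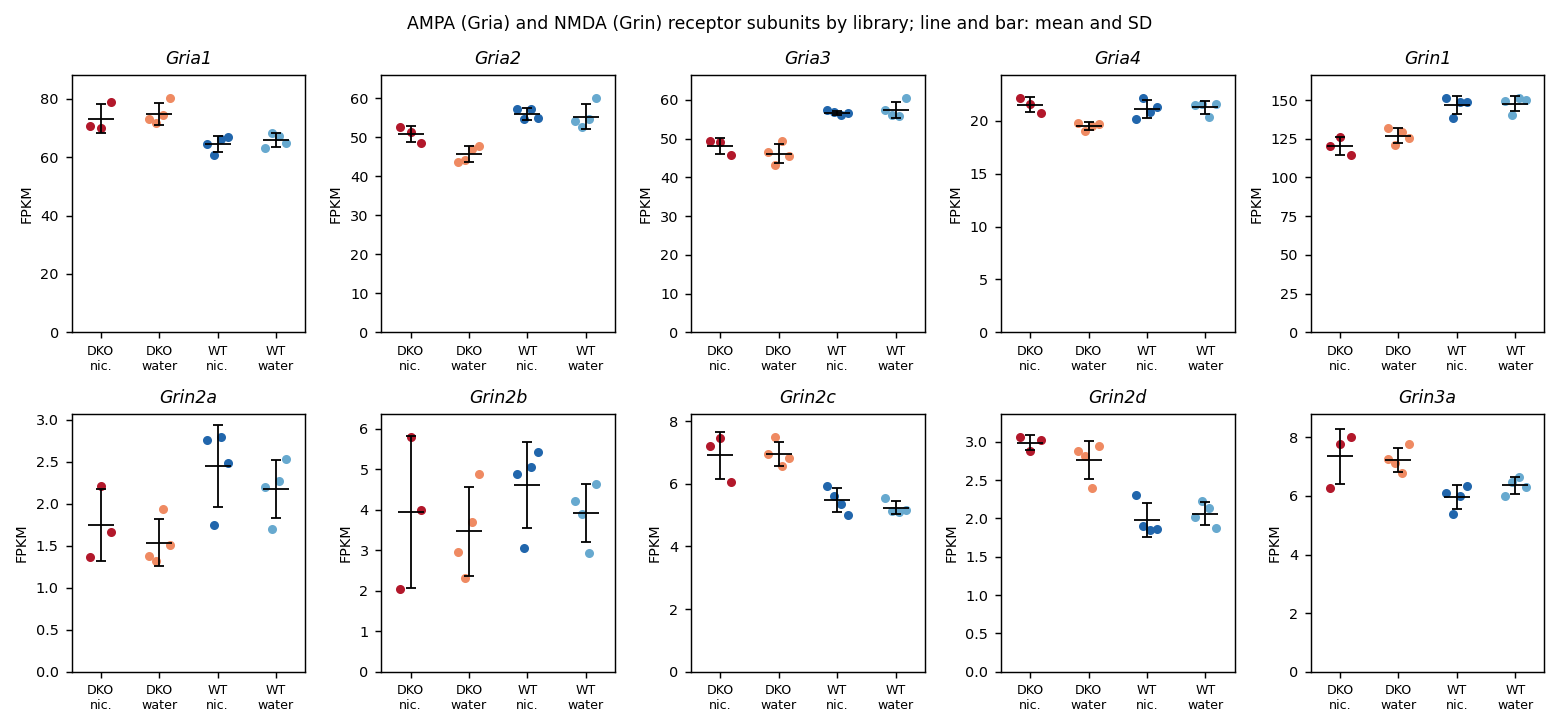
FPKM of each of the 10 receptor genes (vertical axes, each from 0) in every library of the 4 groups (horizontal axes), with lines at the group mean and bars of 1 SD. Gria1, Grin2c and Grin2d sit higher in DKO than in WT libraries and Gria3 and Grin1 lower, while the libraries of one group spread widely for Grin2a and Grin2b, from 2.05 to 5.79 FPKM for Grin2b in DKO nicotine.

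DKO and WT mice that drank water were compared first, and DKO and WT mice that drank nicotine second; each pair asks how the loss of the presenilins bears on receptor mRNA on a given drink. In the knockout cortex Gria1 was higher and Gria2, Gria3 and Grin1 were lower, whereas the NMDA subunit genes Grin2c and Grin2d were higher. These 6 genes passed the test on both drinks. A gene is called where the Benjamini-Hochberg adjusted p of limma over all 12728 tested genes is under 0.05, and differences are given as log2(FPKM + 1), a scale that understates the change of low genes. On water 3 members were called higher, 5 lower and 2 were not called, where 38% of all tested genes were called, 25.5% higher and 12.4% lower. The libraries of DKO water and WT water did not overlap for 8 members, against 36.5% of tested genes. On nicotine 4 members were called higher, 3 lower and 3 were not called, where 35.7% of tested genes were called, 24.6% higher and 11% lower. Groups did not overlap for 6 members on nicotine, against 37.7% of tested genes. The median member differed by -0.14 on water and -0.06 on nicotine, beside 0.05 and 0.06 over all tested genes. In whole tissue, fewer cells of a type and less RNA per cell cannot be told apart.

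Gria1 encodes GluA1, the subunit best known for its insertion into synapses during long-term potentiation. It was at 70.6, 70.0 and 79.0 FPKM in DKO nicotine libraries and at 73.0, 71.6, 74.3 and 80.3 in DKO water libraries. WT nicotine libraries held 64.5, 60.6, 66.2 and 66.9 FPKM and WT water libraries 63.0, 68.4, 67.1 and 65.0. Every DKO library was above every WT library. The difference on water was 0.18 (SE 0.05, limma adjusted p = 0.00625), and on nicotine it was 0.18 (SE 0.05, limma adjusted p = 0.0118). On nicotine the call rested in part on DKO nicotine replicate 3, the highest of its group: without it the difference was 0.12 (limma adjusted p = 0.089). Median-of-ratios rescaling also ended that call, at 0.12 (limma adjusted p = 0.0872).

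Gria2 encodes GluA2, the subunit that carries the edited site and limits calcium entry through AMPA receptors. Its libraries held 52.6, 51.3 and 48.5 FPKM in DKO nicotine and 43.7, 44.1, 47.0 and 47.7 in DKO water. In WT nicotine it was at 57.2, 54.6, 57.3 and 54.9 FPKM, and in WT water at 54.1, 52.5, 54.6 and 60.1. On each drink all DKO libraries lay below all WT libraries, and the mean of DKO nicotine stood between that of DKO water and those of the WT groups. The difference was -0.27 on water (SE 0.04, limma adjusted p = 0.000127) and -0.14 on nicotine (SE 0.05, limma adjusted p = 0.0322). The call on nicotine was lost with no intensity trend (limma adjusted p = 0.0504), with the replicate number as a block (limma adjusted p = 0.0711), without DKO nicotine replicate 2 (limma adjusted p = 0.0501), without replicate 3 (limma adjusted p = 0.152), and without WT nicotine replicate 1 or 3 (limma adjusted p = 0.0705 and 0.0746).

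Gria3, on the X chromosome (41400819 to 41678601), encodes GluA3, which forms receptors together with GluA2. DKO nicotine libraries held 49.5, 49.0 and 45.8 FPKM of Gria3, and DKO water libraries 46.5, 43.3, 49.4 and 45.4. WT nicotine libraries were at 57.3, 56.8, 56.1 and 56.6 FPKM, and WT water libraries at 57.3, 56.0, 56.0 and 60.5. A gap separated the genotypes on both drinks, since no DKO library reached 50 FPKM and no WT library was under 55. Gria3 differed by -0.31 on water (SE 0.04, limma adjusted p = 1.37e-05) and by -0.23 on nicotine (SE 0.04, limma adjusted p = 0.000548).

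Gria4 encodes GluA4, which in the cortex is known mainly from interneurons. It was at 22.1, 21.6 and 20.8 FPKM in DKO nicotine and at 19.8, 19.0, 19.5 and 19.7 in DKO water, against 20.2, 22.1, 20.8 and 21.3 in WT nicotine and 21.5, 21.6, 20.3 and 21.6 in WT water. Only DKO water stood apart, with all 4 libraries under 20 FPKM. On water Gria4 differed by -0.12 (SE 0.04, limma adjusted p = 0.0189), the smallest called difference of the 10 genes. Without WT water replicate 4 the adjusted p was 0.0509, and without DKO water replicate 2 it was 0.0577 (both limma). On nicotine the groups overlapped and the difference was 0.03 (95% interval -0.06 to 0.11), which became -0.03 when libraries were rescaled by median-of-ratios factors.

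Grin1 encodes GluN1, which every NMDA receptor needs. DKO nicotine libraries held 120.3, 126 and 115 FPKM, and DKO water libraries 132, 121, 129 and 125. In WT nicotine Grin1 was at 151, 139, 149 and 149 FPKM, and in WT water at 149, 140.4, 151 and 149.9. The lowest WT library was above the highest DKO library. Grin1 differed by -0.22 on water (SE 0.04, limma adjusted p = 0.000416) and by -0.29 on nicotine (SE 0.04, limma adjusted p = 8.59e-05). Grin1os, an antisense gene at the same locus, was at 0.13 to 0.311 FPKM over all libraries, and the sources used here do not say whether reads were counted by strand.

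Grin2a and Grin2b encode GluN2A and GluN2B, known as the main GluN2 subunits of the forebrain, the balance of which shifts towards GluN2A as the cortex matures. In these FPKM values the means of both lay below that of Grin2c in every group. Grin2a was at 1.36, 2.22 and 1.66 FPKM in DKO nicotine and at 1.38, 1.32, 1.94 and 1.504 in DKO water. WT nicotine libraries held 2.76, 1.75, 2.79 and 2.48 FPKM of Grin2a, and WT water libraries 2.20, 1.70, 2.27 and 2.53. The lower WT libraries overlapped with the higher DKO libraries on both drinks. Grin2a differed by -0.32 on water (SE 0.12, limma adjusted p = 0.0413) and by -0.33 on nicotine (SE 0.13, limma adjusted p = 0.0581), so only the first was a call. That call was lost without any of WT water replicates 1, 3 and 4 or DKO water replicates 1, 2 and 4 (limma adjusted p up to 0.122), and with no filter on low values (limma adjusted p = 0.0684). On nicotine Grin2a passed the threshold with limma voom on recovered reads (adjusted p = 0.0342), with median-of-ratios rescaling (limma adjusted p = 0.038), and without DKO nicotine replicate 2 (0.0187), WT nicotine replicate 2 (0.0116) or WT water replicate 2 (0.05).

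Grin2b varied more between the libraries of a group than any other member. It was at 2.05, 5.79 and 3.99 FPKM in DKO nicotine, at 2.97, 2.32, 3.69 and 4.89 in DKO water, at 4.88, 3.06, 5.07 and 5.43 in WT nicotine and at 4.23, 3.90, 2.94 and 4.64 in WT water. The 4 groups overlapped throughout, and the coefficient of variation within a group ran from 18.5% to 47.4%. Differences were -0.16 on water (95% interval -0.62 to 0.29) and -0.23 on nicotine (95% interval -0.73 to 0.26), neither of them called (limma adjusted p = 0.593 and 0.462). Both intervals hold falls larger than any called fall among the members.

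Grin2c encodes GluN2C, which in adult forebrain is known from astrocytes and some interneurons, and it was the member with the largest rise on water. DKO nicotine libraries held 7.21, 7.45 and 6.06 FPKM, and DKO water libraries 6.95, 7.49, 6.58 and 6.83. WT nicotine libraries were at 5.92, 5.61, 5.36 and 5.01 FPKM, and WT water libraries at 5.54, 5.14, 5.10 and 5.17. All DKO libraries lay above all WT libraries. Grin2c rose by 0.35 on water (SE 0.06, limma adjusted p = 0.000283) and by 0.29 on nicotine (SE 0.07, limma adjusted p = 0.00314).

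Grin2d encodes GluN2D, a subunit with slow closing kinetics that in adult cortex is known from interneurons. It was at 3.06, 2.88 and 3.03 FPKM in DKO nicotine and at 2.88, 2.81, 2.40 and 2.95 in DKO water, against 2.31, 1.90, 1.86 and 1.86 in WT nicotine and 2.02, 2.22, 2.14 and 1.87 in WT water. The lowest DKO library was above the highest WT library. Grin2d rose by 0.30 on water (SE 0.07, limma adjusted p = 0.00218) and by 0.42 on nicotine (SE 0.07, limma adjusted p = 0.000239).

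Grin3a encodes GluN3A, which lowers the calcium permeability of NMDA receptors and whose level is known to fall after early postnatal life. Its libraries held 6.28, 7.77 and 8.00 FPKM in DKO nicotine and 7.26, 7.12, 6.78 and 7.76 in DKO water. WT nicotine libraries were at 6.10, 5.38, 6.01 and 6.35 FPKM, and WT water libraries at 5.99, 6.48, 6.64 and 6.32. On water the groups did not overlap, yet the difference of 0.16 missed the threshold (SE 0.07, limma adjusted p = 0.0664) and passed it with limma voom on recovered reads (adjusted p = 0.0463), with only the groups compared in the fit (limma adjusted p = 0.0305) and without DKO nicotine replicate 1 (limma adjusted p = 0.0264). On nicotine 1 DKO library lay within the WT range, and the difference of 0.26 was called (SE 0.07, limma adjusted p = 0.00999), but not without DKO nicotine replicate 3 (limma adjusted p = 0.0677).

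**Figure D2:**
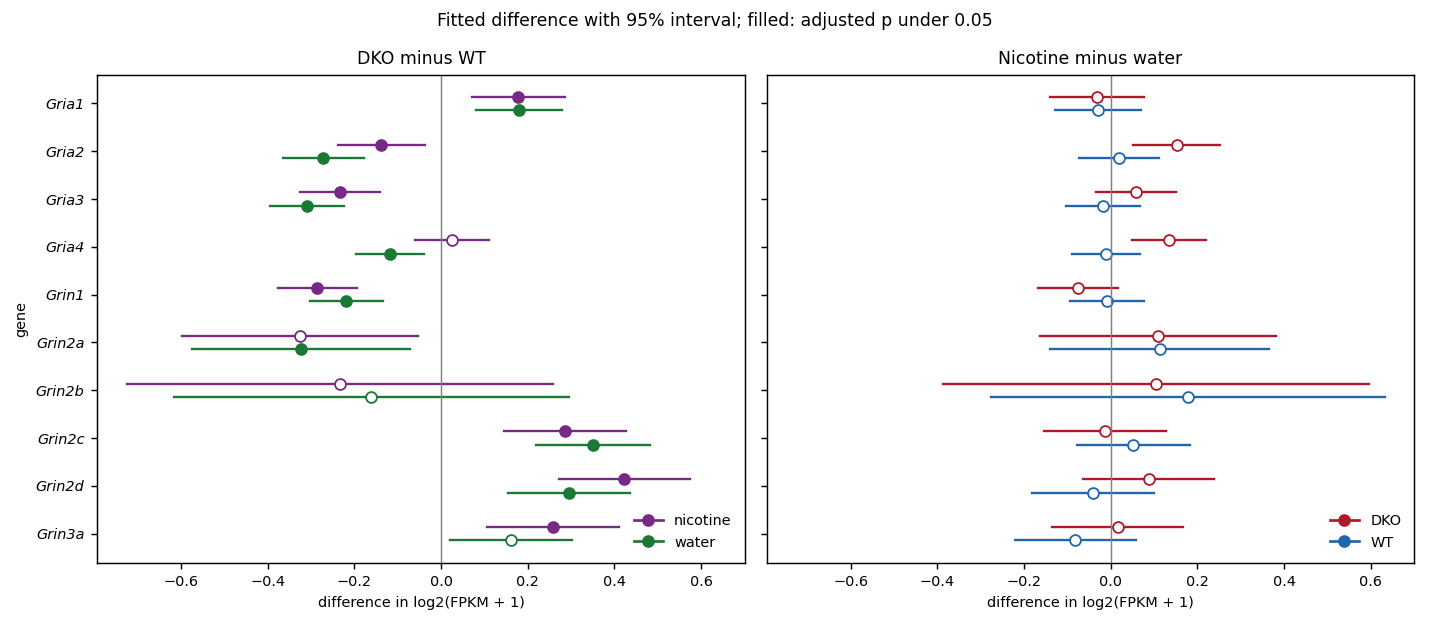
Fitted difference in log2(FPKM + 1) of each receptor gene (horizontal axes) with its 95% interval, DKO minus WT on the left by drink and nicotine minus water on the right by genotype; filled points have an adjusted p under 0.05. On the left 6 genes are filled on both drinks, 3 to the right of 0 and 3 to the left, and on the right no point is filled.

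Without DKO nicotine replicate 2, the DKO nicotine library that lacks Y-linked signal, 7 members were called between DKO nicotine and WT nicotine, of which 6 were among the 7 called with it. Genotype and Y-linked signal then coincide in full on nicotine, so that count does not separate them. Leaving out replicate 3 instead brought the count down to 4, where calls over all tested genes came down too, to 3429 of 12686. Without replicate 2 they were 4415 of 12706, and with all libraries 4538 of 12728. With whole reads recovered from the FPKM values and tested by limma voom, 9 members were called on water and 8 on nicotine. By that test 4849 and 4605 of the 12728 tested genes were called.

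The balance of subunits within a library was compared next, because a ratio of 2 genes in the same library does not depend on how that library was scaled. The proportion of Gria1 to Gria2 was higher in DKO than in WT. Gria1 was 1.45 ± 0.16 times Gria2 in DKO nicotine (SD, n = 3), 1.64 ± 0.0469 in DKO water, 1.15 ± 0.0473 in WT nicotine and 1.2 ± 0.0938 in WT water (SD, n = 4 each), and each DKO library was above every WT library. With both drinks together the ratio differed by 0.39 on the log2 scale (two-sided exact permutation test within drink, p = 0.000408, adjusted p = 0.00571 over 14 tests of 7 ratios and 2 factors). Since Gria1 was higher and Gria2 lower in the comparisons of single genes, this ratio joins those differences and is no separate evidence of either. The ratio of Gria4 to Gria2 was 0.423 ± 0.00421 in DKO nicotine (SD, n = 3) and 0.428 ± 0.019 in DKO water, against 0.377 ± 0.0244 in WT nicotine and 0.385 ± 0.0235 in WT water (SD, n = 4 each). That ratio differed by 0.16 (exact permutation test, p = 0.00163, adjusted p = 0.0114), and by 0.16 without DKO nicotine replicate 3 (adjusted p = 0.0533). It shares Gria2 with the ratio before it and is no separate evidence of a lower Gria2. The ratio of Gria3 to Gria2, both of which were lower in DKO, differed by -0.07 and missed the threshold (exact permutation test, adjusted p = 0.0871), but passed it without WT water replicate 4 (0.0476) or DKO water replicate 1 (0.0495).

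As shares of the summed FPKM of the 4 AMPA genes, Gria1 made up 37.8% in DKO nicotine, 40.2% in DKO water, 32.5% in WT nicotine and 33.0% in WT water. The share of Gria2 was 26.2%, 24.5%, 28.2% and 27.6% in those groups, and that of Gria3 was 24.8%, 24.8%, 28.6% and 28.7%. Gria4 held between 10.5% and 11.1% in each group. The 4 genes together came to 194 ± 1.48 FPKM over 3 DKO nicotine libraries and 186 ± 6.89 over 4 DKO water libraries (SD), against 198 ± 2.87 in WT nicotine and 199.9 ± 4.96 in WT water (SD, n = 4 each).

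For the NMDA receptor, the ratio of Grin2a to Grin2b was 0.488 ± 0.153 in DKO nicotine (SD, n = 3), 0.467 ± 0.114 in DKO water, 0.536 ± 0.0534 in WT nicotine and 0.569 ± 0.144 in WT water (SD, n = 4 each). The genotypes overlapped, and the difference of -0.23 did not pass (exact permutation test, adjusted p = 0.290). Grin2a relative to Grin1 differed by -0.24 (adjusted p = 0.163), Grin2b relative to Grin1 by -0.01 (adjusted p = 0.994) and Grin1 relative to Gria2 by -0.04 (adjusted p = 0.454), all by the same exact permutation test. For Grin1 to Gria2 the direction turned with the drink, at 0.06 on water (adjusted p = 0.640) and -0.15 on nicotine (adjusted p = 0.2), each by an exact permutation test on that drink alone. Among the 4 Grin2 genes, Grin2c held 44.8% of the summed FPKM in DKO nicotine, 47.5% in DKO water, 38.1% in WT nicotine and 39.2% in WT water. The share of Grin2d was 19.5%, 18.8%, 13.7% and 15.5% in those groups. Grin2a held 11.1% in DKO nicotine, 10.4% in DKO water, 16.7% in WT nicotine and 16.2% in WT water, and Grin2b 24.6%, 23.3%, 31.5% and 29.1%. Whether FPKM measures these 4 genes alike was not tested, so the shares do not rank the GluN2 subunits.

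**Figure D3:**
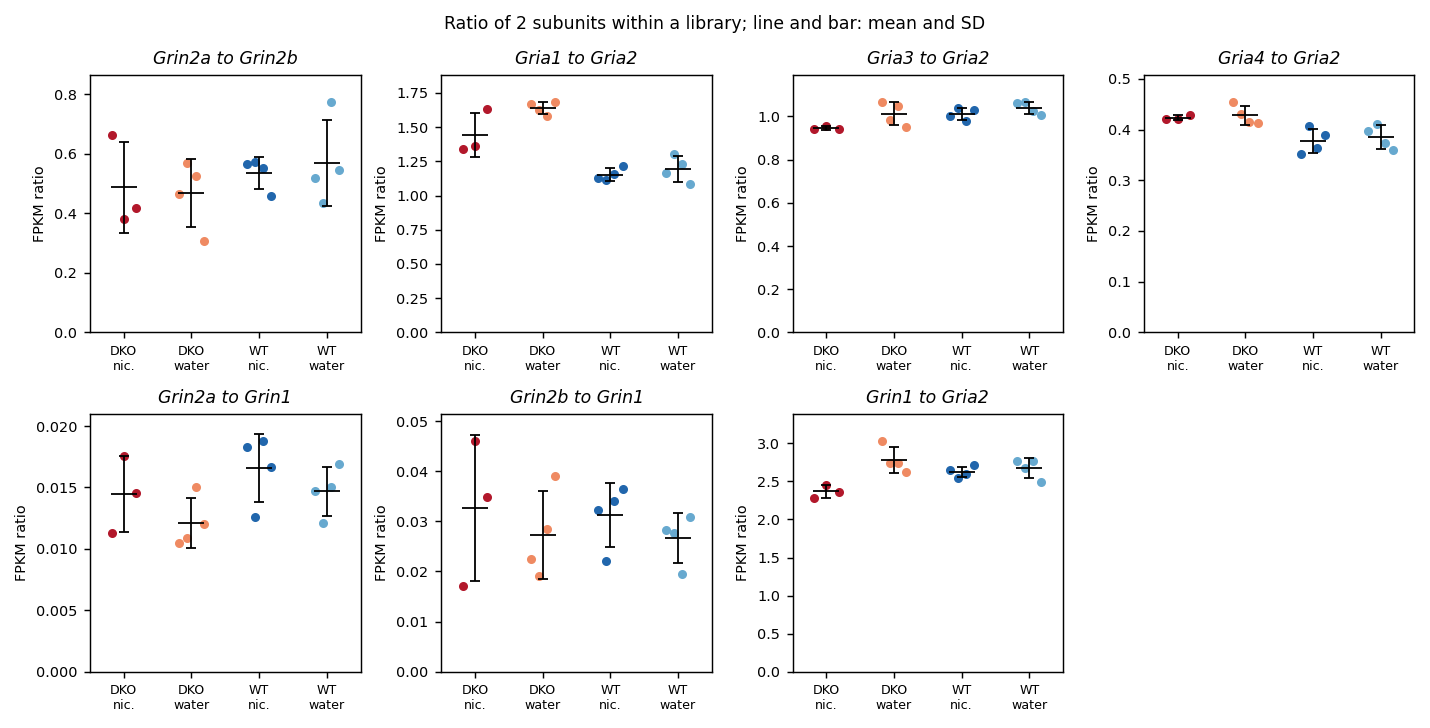
FPKM of one receptor gene divided by that of another in the same library (vertical axes, each from 0) for the 4 groups (horizontal axes), with the mean and a bar of 1 SD. Gria1 to Gria2 is higher in every DKO library than in every WT library, while Grin2a to Grin2b overlaps between all groups.

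Nicotine was then compared with water within each genotype, the question named in the title of the study. None of the 10 genes was called on nicotine in either genotype. In DKO, limma called 0 members, where 0.157% of tested genes were called. Of the 12728 tested genes 1765 had an unadjusted p under 0.05, and 2 members did. Those 2 were Gria2, which averaged 50.8 ± 2.11 FPKM over 3 DKO nicotine libraries and 45.6 ± 2.05 over 4 DKO water libraries (SD), and Gria4, at 21.5 ± 0.697 in DKO nicotine and 19.5 ± 0.366 in DKO water. Both had every nicotine library above every water library, as 10.9% of tested genes had groups that did not overlap, with differences of 0.15 (limma adjusted p = 0.186) and 0.13 (limma adjusted p = 0.171). In WT, limma called 0 members, where 0.173% of tested genes were called. An unadjusted p under 0.05 was found for 0 members, beside 1107 of the 12728 tested genes. The groups overlapped for all 10 members, beside 5.8% of tested genes without overlap. Limma voom on recovered reads also called 0 members in both genotypes, beside 87 of the 12728 tested genes in DKO and 16 in WT. The largest difference in WT was in Grin2b, 0.18 (95% interval -0.28 to 0.63). For Grin1 the interval in WT was -0.09 to 0.08, and for Gria3 it was -0.10 to 0.07.

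A difference between the nicotine effects of the 2 genotypes was tested as an interaction, and limma called 0 members, where 0.0157% of tested genes were called. Gria4 was the 1 member with an unadjusted p under 0.05, at a difference of 0.14, beside 878 of the 12728 tested genes. Limma voom called 0 members here as well, beside 2 tested genes. Of the subunit ratios none differed between nicotine and water after adjustment over the 14 tests. Grin1 to Gria2 came nearest, at 2.37 ± 0.0856 in DKO nicotine (SD, n = 3) and 2.78 ± 0.17 in DKO water (SD, n = 4), and at 2.62 ± 0.0718 in WT nicotine and 2.68 ± 0.127 in WT water (SD, n = 4 each), a difference of -0.13 over both genotypes (exact permutation test, adjusted p = 0.0667). Without WT water replicate 4 it passed, at -0.15 (exact permutation test, adjusted p = 0.0152), as it did without WT nicotine replicate 4, at -0.14 (exact permutation test, adjusted p = 0.0457).

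Variation among the libraries of a group was described with each value taken as its deviation from the group mean, over 15 libraries that share sequencing depth and RNA quality within a library. Grin2a and Grin2b deviated together (Pearson r = 0.69), as did Grin1 and Grin2a (r = 0.73), Gria1 and Grin3a (r = 0.69) and Gria2 and Gria3 (r = 0.66). Gria1 and Grin2c deviated in opposite directions (r = -0.74). Grin2a and Grin2b have long gene models, 11683 and 8461 bases, where the median tested gene has 3564. An index of each library, the median deviation of 1415 genes over 8000 bases minus that of 2709 genes under 2000 bases, moved with both: r was 0.80 for Grin2a, 0.72 for Grin2b and 0.66 for Gria2, whose model has 12190 bases. For Grin2c and Grin2d, with models of 10121 and 9223 bases, r was 0.10 and -0.20. Between the genotypes the median difference on water was -0.03 for the long genes and 0.11 for the short genes, and on nicotine it was 0.02 and 0.10. The part of this balance in the differences of Gria2, Grin2a and Grin2b, and in the ratios that hold these genes, was not tested.

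**Figure D4:**
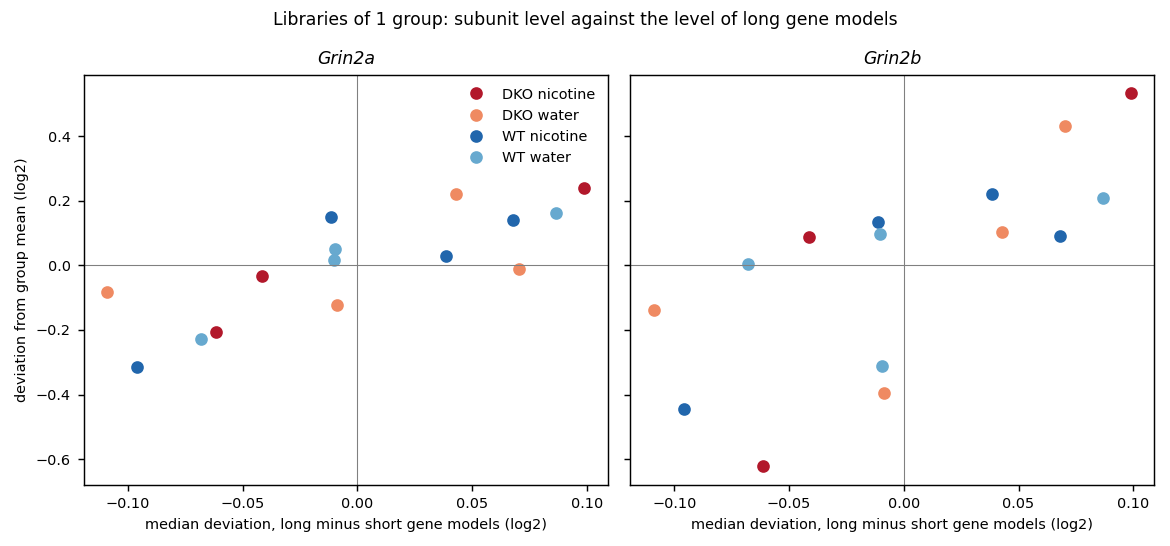
Deviation of Grin2a (left) and Grin2b (right) from the group mean in log2(FPKM + 1) (vertical axis) against the library's median deviation of long minus short gene models (horizontal axis, log2), 1 point per library. Libraries to the right hold more of both mRNAs, with r = 0.80 for Grin2a and 0.72 for Grin2b over 15 libraries.

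The genes with the most similar deviations over the 15 libraries were Gpcpd1 (r = 0.89), Parp9 and Trhr2 for Grin2c, and Kcnh5 (r = 0.94), Ncoa7 and Glg1 for Grin2a. For Grin2b, chosen after its values were seen, they were Ankrd17 (r = 0.96), Ncoa1 and Rfx3. All were picked as the highest of 12728 genes, so their r values are high by choice.

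Genes that act with the receptors were described from 5 lists, each by counts and the median beside the median of all tested genes, 0.05 on water and 0.06 on nicotine. Of all tested genes 38% were called on water, 25.5% higher and 12.4% lower, and 35.7% on nicotine, 24.6% higher and 11% lower. On water 37.5% of the AMPA auxiliary subunits and 40% of the kainate and delta receptor genes were called, near that share. On nicotine these were 43.8% and 30%. A gene named on 1 drink only may also be called on the other. AMPA auxiliary subunits bind the receptor and set its gating and delivery to the membrane. Of 16 on water, 1 was higher, 5 lower and 10 not called, with a median of -0.05; of 16 on nicotine, 1 was higher, 6 lower and 9 not called, with a median of -0.07. Cnih3, a cornichon that aids receptor export, was at 21.8 ± 0.662 FPKM in DKO water and 30.1 ± 1.19 in WT water (SD, n = 4 each), a difference of -0.45 (SE 0.04, limma adjusted p = 3.22e-07). Cacng3, the TARP protein gamma-3, was at 53.8 ± 3.76 FPKM in DKO water and 75.2 ± 3.54 in WT water (SD, n = 4 each), a difference of -0.48 (SE 0.06, limma adjusted p = 1.34e-05). Syndig1 and Frrs1l, which act in synapse formation and receptor assembly, fell by 0.37 and 0.38 on water. On nicotine Cnih3, Cacng3, Syndig1 and Frrs1l fell by 0.43, 0.53, 0.39 and 0.38, and Cacng2, the TARP stargazin, fell by 0.24. Cacng2 on water was at 18.5 ± 0.894 FPKM in DKO and 19.0 ± 0.656 in WT (SD, n = 4 each) and was not called.

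Among 15 genes of AMPA receptor trafficking, clustering and RNA editing, 3 were higher, 5 lower and 7 not called on water (median -0.01), and 3 were higher, 4 lower and 8 not called on nicotine (median 0.00). Nptx2, a secreted pentraxin that gathers AMPA receptors at synapses on interneurons, stood far from the rest. On nicotine it averaged 60.5 ± 5.32 FPKM in 3 DKO libraries and 17.3 ± 2.06 in 4 WT libraries (SD), and it was at 55.3 ± 1.74 in DKO water and 20.05 ± 0.598 in WT water (SD, n = 4 each). Its rises were 1.75 on nicotine (SE 0.07, limma adjusted p = 1.9e-11) and 1.42 on water (SE 0.07, limma adjusted p = 7.48e-11). Adar, which encodes the editing enzyme ADAR1, fell by 0.29 on water and 0.19 on nicotine. Adarb1, whose product edits the Gria2 codon shown above, was at 21.7 ± 0.713 FPKM in DKO water and 21.4 ± 1.3 in WT water (SD, n = 4 each) and was not called on either drink; it lies outside the rule for named genes and is given for its tie to that codon. Epb41l1, a scaffold of GluA1, fell by 0.17 on water and 0.19 on nicotine, and Olfm2, an olfactomedin of the AMPA receptor complex, fell by 0.28 and 0.39.

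Of 10 kainate and delta receptor genes, 2 were higher, 2 lower and 6 not called on water (median -0.05), and 2 were higher, 1 lower and 7 not called on nicotine (median -0.03). The kainate receptor subunit genes Grik1 and Grik2 rose by 0.27 and 0.16 on water and by 0.35 and 0.19 on nicotine. Grid1, a delta receptor gene, fell by 0.12 on water. Grid2ip, a partner of the other delta receptor, was at 0.393 ± 0.124 FPKM in DKO water and 1.1 ± 0.142 in WT water (SD, n = 4 each). The differences were -0.60 on water and -0.56 on nicotine. It passed the filter on low values only through WT libraries, where it is higher, so its place among the lower genes of both counts is no support.

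The list of NMDA receptor partners, co-agonist supply and signalling held 22 genes, 20 of them tested. On water 4 were higher, 9 lower and 7 not called (median -0.11), and on nicotine 4 were higher, 8 lower and 8 not called (median -0.08). Camk2a, the calcium-activated kinase that NMDA receptors bind and activate, averaged 549 ± 36.8 FPKM in 3 DKO libraries and 776 ± 34 in 4 WT libraries on nicotine (SD), and was at 517 ± 33.2 in DKO water and 725 ± 8.43 in WT water (SD, n = 4 each). It fell by 0.50 on nicotine (limma adjusted p = 1.5e-06) and by 0.49 on water (limma adjusted p = 6.64e-07). Dlg4, the scaffold PSD-95, fell by 0.31 on nicotine and 0.18 on water, and the tyrosine kinase gene Ptk2b by 0.24 on nicotine and 0.19 on water. Rasgrf1, an exchange factor driven by calcium, fell by 0.48 on water. Slc7a10, an astrocyte transporter of the co-agonists D-serine and glycine, rose by 0.49 on nicotine and 0.55 on water.

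Transporters and enzymes that clear, recycle or package glutamate formed the last list. Of 11 on water, 7 were higher, 1 lower and 3 not called (median 0.15), and of 11 on nicotine, 4 were higher, 1 lower and 6 not called (median 0.11). Over all tested genes 25.5% were higher and 12.4% lower on water, and 24.6% and 11% on nicotine. Slc1a3, the astrocyte transporter GLAST, rose by 0.31 on water and 0.27 on nicotine. Slc1a4, a transporter of neutral amino acids, rose by 0.44 and 0.37. Glul, the glutamine synthetase of astrocytes, rose by 0.20 on water, and Slc1a2, the transporter GLT-1, rose by 0.28 on nicotine. Slc17a6, the vesicular transporter VGLUT2, known in cortex mainly from the axons of thalamic neurons and from few cortical cells, was at 2.21 ± 0.19 FPKM in DKO water and 4.02 ± 0.335 in WT water (SD, n = 4 each), and fell by 0.64 on water and 0.46 on nicotine. For nicotine against water, 0 genes of the 5 lists were called in either genotype by limma.

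**Figure D5:**
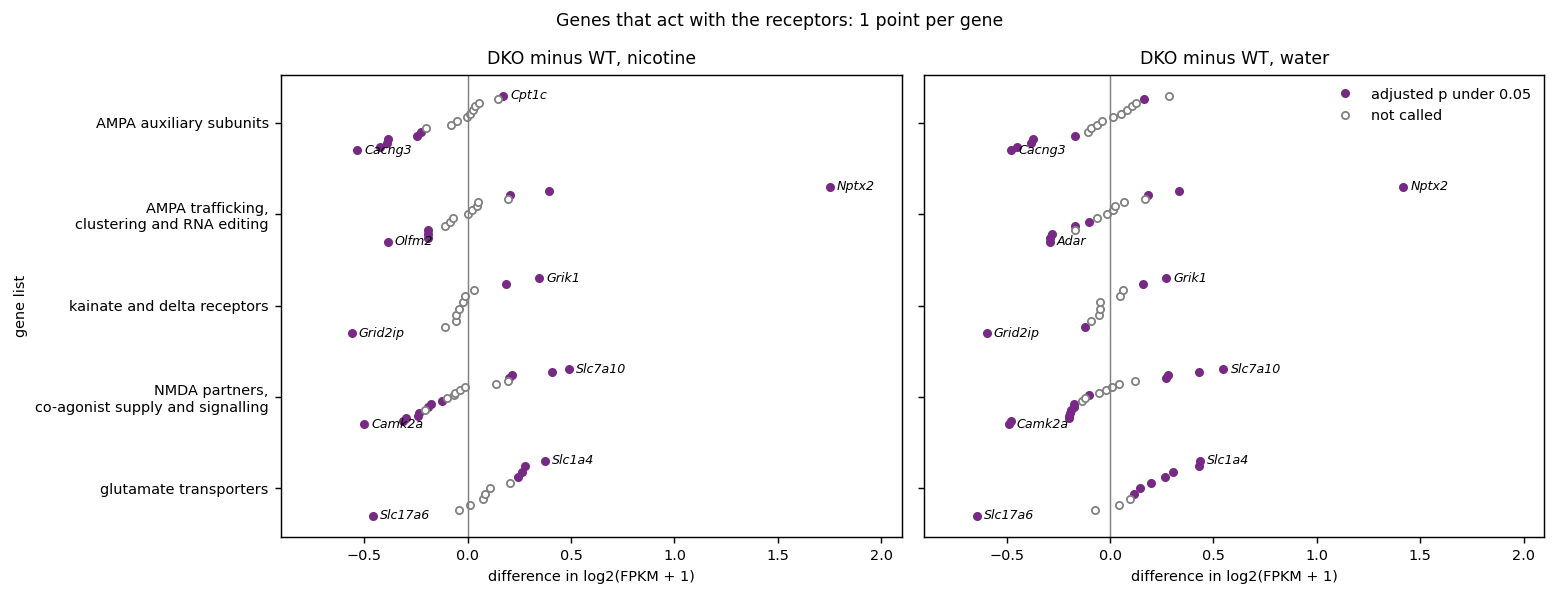
Fitted DKO minus WT difference in log2(FPKM + 1) (horizontal axes) of each tested gene in 5 lists of genes that act with the receptors (rows), nicotine on the left and water on the right, 1 point per gene, with the called gene of the lowest and of the highest difference named. Most points lie within 0.5 of 0, with Nptx2 at 1.75 on nicotine and 1.42 on water.

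Markers of cell types also differed between the genotypes. Over all tested genes 25.5% were higher and 12.4% lower on water, and 24.6% and 11% on nicotine. Excitatory neuron markers, set beside Gria2, Gria3 and Grin1, summed to 1934 to 2140.2 FPKM in DKO nicotine, 1959 to 2114 in DKO water, 2535 to 2716 in WT nicotine and 2455 to 2526 in WT water. Of these 12 markers on water, 6 were lower and 6 not called, and on nicotine 1 was higher, 6 lower and 5 not called. Neurod6, Rorb and Camk2a were among the lower ones on water, whereas Slc17a7 averaged 569 FPKM in DKO water and 552 in WT water and was not called. Camk2a, named above among the NMDA receptor partners, is part of these counts and sums and is no separate observation. Inhibitory neuron markers were higher in 9 of 10 cases on water and 5 of 10 on nicotine. Set beside them, Grin2d was higher on both drinks, while Gria4 was lower on water and not called on nicotine. The inhibitory markers summed to 645 to 842 FPKM in DKO nicotine, 730.4 to 902 in DKO water, 648 to 698 in WT nicotine and 624 to 697 in WT water. Adarb2, counted above among the genes of AMPA receptor trafficking, clustering and RNA editing, is 1 of these 10 markers and is no separate observation. Astrocyte markers, set beside Grin2c and Slc7a10, were higher in 10 of 10 cases on water and 7 of 10 on nicotine. Their sums were 1015 to 1069 FPKM in DKO nicotine, 1009 to 1114 in DKO water, 567 to 648 in WT nicotine and 549 to 597 in WT water. Slc1a3, named above among the transporters, is itself 1 of these 10 markers and is no separate observation. Microglia markers were higher in 10 of 10 cases on water and 8 of 10 on nicotine. No marker of these 4 lists was at 0 in every library of a group. Striatum markers were higher in 5 of 8 cases on water and 0 of 8 on nicotine. Oligodendrocyte and endothelial markers were higher in 6 of 11 and 3 of 8 cases on water, and in 4 of 11 and 2 of 8 on nicotine, and hippocampus markers in 3 of 6, with 1 lower, on both drinks. The endothelial share on nicotine, 25%, was near the 24.6% of all tested genes called higher. The part of these markers in the receptor differences was not tested.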

How the data were processed

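RNA-seq of 15 mouse libraries in 4 groups was analysed, with groups taken from the labels. TRIzol was used to extract RNA and a TruSeq stranded mRNA kit to prepare libraries, per the labels' protocols. The submitters' processing notes name the build GRCm38.p6. Aligner, counter and strand setting: not given in the sources used here. The authors deposited 1 table of FPKM values per gene and library. Of the deposited FPKM values of tested genes, 100% were whole multiples of 1 read within 0.02 reads, which gave back the reads, 16334914 to 19469257 per library. FPKM divides by the length of the gene model, so transcripts of 1 gene are not told apart.

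Values were tested as log2(FPKM + 1) in limma 3.58.1 (R 4.3.3) with an intensity trend, all 15 libraries in 1 fit with no block, over the 12728 genes that reached 1 FPKM in 3 or more libraries. P-values were adjusted by Benjamini-Hochberg within a comparison, and the threshold was 0.05. The functions were tested on simulated data. Log2 ratios of 2 subunits were compared by two-sided exact permutation within drink or genotype (2450 permutations), adjusted over 14 tests. Python 3.11.15 with pandas 2.3.3 wrote the tables, and matplotlib 3.10.9 drew the plots.

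The interaction needs all 4 groups, so it has no fit on only the groups compared. The 10 genes, the lists and the rules were chosen with earlier results of these data known. All 10 genes are named. Some values and sequences that the rules cover are not reported here. From each list up to 4 called genes with the smallest p were named per comparison, or, with no call, up to 2 of the highest mean level. The likeness of genes was measured for the called members with the largest rise and fall on water. Cacng2, Adarb1 and Dlg4 on water, Frrs1l on nicotine, and the cell type markers named with values, lie outside that rule and were chosen after their values were seen. Alternatives were median-of-ratios rescaling, no filter or a filter at 5 FPKM, a pseudocount of 0.1, no trend, only the groups compared, a replicate block, limma voom on recovered reads and leaving out each library.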

Additional observations from a re-analysis of the deposited data

Results flagged for a closer look

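In 4 cases 1 library of a group stood apart from the other 3, by Dixon's 95% criterion over 51 groups of 4 libraries, where chance marks about 5% of groups. Gria4 in WT water replicate 3 was at 20.3 FPKM, against 21.5 to 21.6 in the other WT water libraries. Grin1 in WT water replicate 2 was at 140.4 FPKM, against 149 to 151 in the others. Grin2c in WT water replicate 1 was at 5.54 FPKM, above the 5.10 to 5.17 of the others. Grin2d in WT nicotine replicate 1 was at 2.31 FPKM, above the 1.86 to 1.90 of the others.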

How the results depend on the processing

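Under the alternatives that keep all libraries, 6 to 9 members were called between DKO water and WT water and 6 to 8 between DKO nicotine and WT nicotine, where the filter at 5 FPKM left only 8 members to test. Of 8944 to 18118 tested genes, 3582 to 5146 were called on water and 3322 to 4864 on nicotine. No called difference changed sign. Leaving out single libraries gave 6 to 9 calls on water and 4 to 8 on nicotine, the 4 without DKO nicotine replicate 3. Of 12686 to 12722 tested genes, 4063 to 4932 were then called on water and 3429 to 4517 on nicotine, the 3429 without that same library. For nicotine against water and the interaction, 0 members were called in every setting. The Gria1 to Gria2 and Gria4 to Gria2 differences between genotypes were 0.46 and 0.15 in water alone (adjusted p = 0.133) and 0.32 and 0.17 in nicotine alone (adjusted p = 0.2), all by exact permutation tests; the smallest p these designs allow is 0.0286, which a ratio on its own cannot bring past the threshold after adjustment over 14 tests. With single libraries left out, the genotype differences ran from -0.081 to -0.054 for Gria3 to Gria2 and from 0.14 to 0.18 for Gria4 to Gria2, and the nicotine differences from -0.16 to -0.093 for Gria1 to Gria2, from -0.081 to -0.055 for Gria3 to Gria2 and from -0.15 to -0.11 for Grin1 to Gria2, with each passing or losing the threshold in 1 or 2 of 15 cases; the cause was not tested. The nicotine differences of Gria1 to Gria2 and Gria3 to Gria2 passed without WT water replicate 4 (exact permutation test, adjusted p = 0.04 and 0.0476).

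With the replicate number as a block, 8 members were called on water and 6 on nicotine, Gria2 being lost (limma adjusted p = 0.0711). Over all 12728 tested genes 4620 and 3980 were called. Little sign of pairing by number was seen: of 21 pairs with the same number, 2 had a correlation of deviations over 0.1 (range -0.22 to 0.18). Of 15 libraries, 2 correlated best with their own number. These correlations cannot exclude a weak pairing. The fewest reads behind a member were 282, for Grin2a, and the intervals were widest for Grin2b and Grin2a.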
